A study of Mus musculus with 67 samples.

Results

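The comparison set the neural retina against the retinal pigment epithelium (RPE) of the same mutant strain in the state labelled NB, the baseline group of the study. It used all 6 NB retina libraries and all 5 NB RPE libraries, 11 of the 33 RNA libraries analysed, and the 15108 genes that the authors' tables of both tissues list, of 18536 genes listed in either. Both groups were C57BL/6J mice that carry abca4-/- and rdh8-/-, so that no group holds wild-type copies of these genes. The labels give neither the age of the mice nor the meaning of NB, and the other groups of the series, named by times of 6 h, 1 d and 3 d, were used only to see whether tissue differences held there. Both eyes of a mouse were pooled. The cornea, iris and lens were cut away, the retina was lifted off, and RPE cells were then shaken from the remaining eyecup into an RNA-preserving solution. RPE here is therefore a cell suspension from an opened eyecup, not a sorted population. Values are the authors' CPM, read counts scaled to library size, and since a level in CPM depends on transcript length, an order of genes by CPM is one of reads only.

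The retina turns light into nerve signals. Rods and cones hold opsin in stacked outer segment membranes and pass their signal through ribbon synapses to bipolar cells, and from there to amacrine and ganglion cells. The RPE is a single sheet of pigmented cells behind the photoreceptors. It remakes the 11-cis-retinal that light uses up, takes in shed outer segment tips, carries glucose inward and lactate outward, and seals the retina from the choroid. Abca4, a flippase of the outer segment disc, and Rdh8, a dehydrogenase of the outer segment, both clear all-trans-retinal from photoreceptors.

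Libraries were named A1 and A2 or B1 to B4 after the 2 forms of column name in the tables, which match them to the NB group but not to single mice. In the text, retina values are given as the lowest, median and highest of 6 libraries, and RPE values in the order A1, B1, B2, B3 and B4. Retina libraries held 9915360 to 32265248 reads and RPE libraries 12996941 to 23132398 reads. A1 and A2 were the deepest of the retina libraries, and A1 was the deepest of the RPE libraries. The RPE libraries also held much RNA of surface epithelium, the cell layer of cornea and conjunctiva. Lists are summed over the members in both tables, so that both tissues sum the same genes. The 8 such surface epithelium markers summed to 10.0 to 23.6 CPM in retina, against 19237, 33908, 32665, 50287 and 33189 CPM in RPE. RPE library B3 was highest and A1 lowest, while the 12 RPE visual cycle genes ran the other way, at 29480.1, 23164, 23069.5, 17212 and 18342 CPM in RPE. The 4 skeletal muscle markers in both tables summed to at most 16.4 CPM in retina and to 496, 258, 105, 69.1 and 41.8 CPM in RPE, highest in A1. Lens markers summed to 294 to 9263 CPM in retina, with library A2 at the low end, and to 3083 to 11466 CPM in RPE. In such mixed samples, fewer cells of a type and less RNA per cell cannot be told apart.

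**Figure D1:**
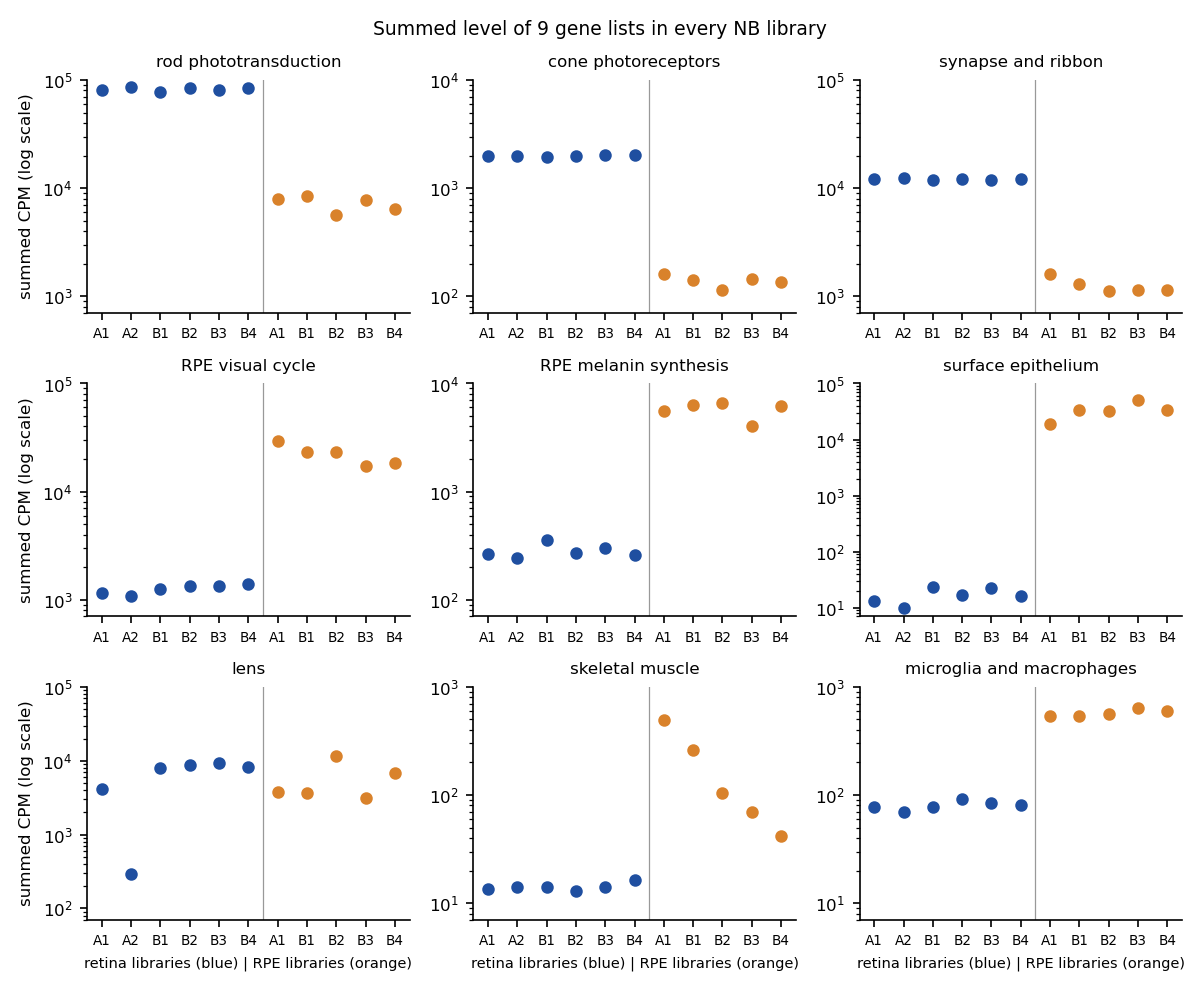
Summed CPM (log scale) of 9 marker lists, over the members in both tables, in each of the 6 NB retina libraries (blue, left) and 5 NB RPE libraries (orange, right), 1 point per library. Photoreceptor and synapse genes sit higher in all retina libraries, RPE, surface epithelium, muscle and macrophage genes higher in all RPE libraries, and the lens sum overlaps between the tissues.

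A gene was called far higher in a tissue when its mean CPM was at least 4-fold above the other tissue, its mean was at least 1 CPM in the higher tissue and every library of that tissue lay above every library of the other. By this rule 2270 genes were far higher in retina and 1683 far higher in RPE, which is 15% and 11.1% of the 15108 shared genes. The counts of list members below are to be read beside these shares. The median gene was 0.35 higher in retina on the log2 scale. Because the authors normalized each tissue apart, this centre is not fixed. Scaling all 11 libraries jointly by trimmed means moved the median to -0.02, and retina genes then made up 45.8% of the calls, against 57.4% with the deposited scaling. No called gene named by the rule changed direction under any of 3 joint scalings. The 4-fold minimum is larger than that shift, so this was built in and is no support for the calls. Uncalled genes within that shift of 0 change sign with the scaling. Just inside the 4-fold threshold lay Pbx4, with means of 3.54 CPM in retina and 0.885 CPM in RPE, and Gdf11, with 18.6 CPM in retina and 74.5 CPM in RPE. Just outside it lay Gm47814, with 5.89 CPM in retina and 1.47 CPM in RPE, and Tmem248, with 49.4 CPM in retina and 198 CPM in RPE, all 4 named for that place.

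The 2 directions differed in shape. Among the genes far higher in retina, 9 of 2270 differed by 64-fold or more and the largest fold was 107. Among those far higher in RPE, 121 of 1683 differed by 64-fold or more and 39 by 256-fold or more. Mean levels correlated across the shared genes with a Spearman rho of 0.63, a description over genes that share the same 11 libraries.

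Ranked by reads, which favours long transcripts, the leading genes of retina included Gnat1, mt-Co1, mt-Cytb, Gnb1, Prph2, Rbp3, Sag, mt-Nd1 and Pde6a. Among the shared genes these held places 51, 2, 6, 112, 330, 284, 266, 15 and 680 in RPE. Apart from the mitochondrial genes these encode rod proteins or proteins around the rods, though Gnb1, the transducin beta subunit, is also made in many other cells. The 10 leading genes of RPE were Gsto1, mt-Co1, Ptgds, Krt5, Krt15, mt-Cytb, Ttr, Rgr, Krt13 and Emp1, and they held places 9053, 3, 602, 14227, 14608, 4, 1288, 1420, 14833 and 13497 of 15108 in retina. Rgr is an opsin of the RPE, Ttr carries retinol-binding protein, and Krt5, Krt15 and Krt13 are keratins of surface epithelium. Ptgds, the lipocalin-type prostaglandin D2 synthase, had 167, 288 and 314 CPM in retina and 11356, 12071, 12042, 7788 and 10381 CPM in RPE (log2 -5.36 ± 0.19).

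**Figure D2:**
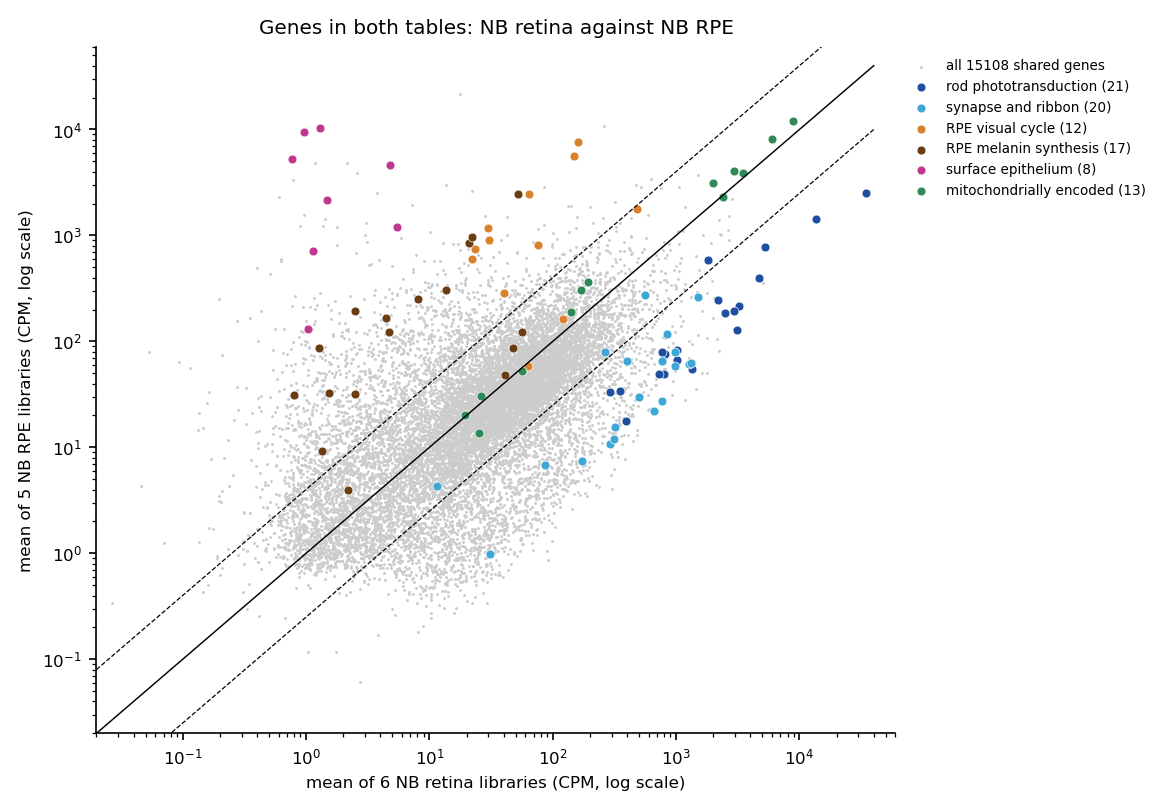
Mean CPM of each shared gene in NB retina (x axis) and NB RPE (y axis), both log scales, with 6 gene lists in colour. The solid line marks equal means and the dashed lines a 4-fold difference: most rod and synapse genes lie below the lower dashed line, most visual cycle and pigment genes and the 8 surface epithelium genes above the upper one, and the 13 mitochondrially encoded genes along the solid line.

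Rod genes took the most reads in retina, and 20 of the 21 rod phototransduction genes were far higher there, with a median log2 of 3.63. Gnat1, the rod transducin alpha subunit, had 12307, 13595 and 14493 CPM in retina and 1391, 1727, 981, 1652 and 1320.1 CPM in RPE. The retina libraries all lay above the RPE libraries, at 9.64-fold (log2 3.27 ± 0.15, SE from the spread of libraries, as for all log2 values below). Grk1, a kinase of the shutoff of the light response, had 2988, 3120.0 and 3266 CPM in retina and 156, 146, 84.2, 140.4 and 117 CPM in RPE, which is 24.3-fold. The groups of both genes stood far apart, and the RPE libraries held 10.4% of the retina level of Gnat1 and 4.11% of that of Grk1. Over the whole list the median member in RPE stood at 8.07% of its retina level. The list summed to 77625 to 86589 CPM in retina and to 7909, 8467, 5608, 7828 and 6374 CPM in RPE, with B2 lowest. Slc24a1, the rod exchanger of sodium, calcium and potassium, was the only member not called, at 1816 CPM in retina and 586 CPM in RPE (log2 1.63 ± 0.09).

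Of 16 outer segment structure genes 13 were far higher in retina and none in RPE. Pcdh15, a protocadherin of photoreceptor membranes, had 341 CPM in retina and 8.1 CPM in RPE (log2 5.39 ± 0.30), and Mak, a kinase that limits the length of the photoreceptor cilium, had 484 and 14.6 CPM in retina and RPE (log2 5.05 ± 0.20). Rp1, which aligns the discs, had 2208 CPM in retina against 81.2 CPM in RPE. The 3 members not called were Cdhr1, Abca4 and Prom1. Cdhr1, a cadherin at the base of the outer segment, had 1562, 1627 and 1797 CPM in retina and 1559, 949.9, 918, 769 and 849.5 CPM in RPE (log2 0.72 ± 0.18). Its retina and RPE libraries lay close to each other, without overlap, and the RPE held 60.7% of the retina level. The genotype gene Abca4 had 696, 767 and 928 CPM in retina and 276, 255, 244, 212 and 214 CPM in RPE (log2 1.73 ± 0.10). Its libraries did not overlap between the tissues, and the RPE held 30.1% of the retina level, a larger share than the 10.4% of Gnat1. Rdh8 had 32.2, 38.6 and 49 CPM in retina and 2.62, 4.01, 2.43, 2.8 and 2.46 CPM in RPE (log2 3.82 ± 0.16). Counts over a whole gene include transcript outside a deleted part, so the reads of Abca4 and Rdh8 do not check the genotype.

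Cone genes followed with 11 of 13 far higher in retina and a median log2 of 4.30. Opn1mw, the green cone opsin, had 105, 115 and 164 CPM in retina and 7.05, 6.05, 4.39, 3.57 and 2.61 CPM in RPE (log2 4.67 ± 0.28). Arr3, cone arrestin, had 361, 381 and 424 CPM in retina and 28.7, 14.2, 13.6, 14.9 and 13.1 CPM in RPE (log2 4.51 ± 0.21), and Slc24a2, the cone exchanger, 84.3 and 2.16 CPM in retina and RPE. The groups were apart for all 3, and the median cone gene stood in RPE at 5.09% of its retina level.

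Photoreceptor transcription factors were far higher in retina in 9 of 11 cases. The 2 not called had a lower mean in retina, with a lowest log2 of -1.28. Crx, the homeodomain factor of rods and cones, had 1183, 1263 and 1396 CPM in retina and 93.6, 78.3, 50.4, 70.3 and 58.9 CPM in RPE (log2 4.18 ± 0.16). Neurod1, a basic helix-loop-helix factor of photoreceptors, had 379 CPM in retina and 13 CPM in RPE (log2 4.86 ± 0.14). Otx2, which both photoreceptors and RPE use, was the member nearest to equality at 217, 229 and 235 CPM in retina and 395, 285, 273, 190.0 and 236 CPM in RPE (log2 -0.28 ± 0.17), and its libraries overlapped between the tissues.

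CRX and OTX2 share the core motif TAATCC. The promoters of 5 genes far higher in retina are shown because that motif lies close to their start. They are from RefSeq (GRCm38.p6), cover the 150 bases upstream of the annotated start, 5′ to 3′ in the direction of the gene, and the capitals mark the motif, which in all of them lies on the other strand and so reads GGATTA.
Sag, chr1:87803530-87803679, plus strand: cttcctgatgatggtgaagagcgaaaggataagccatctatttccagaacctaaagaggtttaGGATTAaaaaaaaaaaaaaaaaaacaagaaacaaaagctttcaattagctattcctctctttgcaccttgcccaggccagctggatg
Gngt1, chr6:3993858-3994007, plus strand: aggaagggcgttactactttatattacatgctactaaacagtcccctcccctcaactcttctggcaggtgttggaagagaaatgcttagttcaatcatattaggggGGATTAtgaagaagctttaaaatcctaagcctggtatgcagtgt
Guca1a, chr17:47400607-47400756, minus strand: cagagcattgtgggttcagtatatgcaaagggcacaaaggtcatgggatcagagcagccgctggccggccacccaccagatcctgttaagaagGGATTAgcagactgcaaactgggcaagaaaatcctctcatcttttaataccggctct
Rbp3, chr14:33953853-33954002, plus strand: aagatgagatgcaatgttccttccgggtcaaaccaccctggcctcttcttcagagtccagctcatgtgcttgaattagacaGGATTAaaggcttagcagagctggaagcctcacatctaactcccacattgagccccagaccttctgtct
Crx, chr7:15879956-15880105, minus strand: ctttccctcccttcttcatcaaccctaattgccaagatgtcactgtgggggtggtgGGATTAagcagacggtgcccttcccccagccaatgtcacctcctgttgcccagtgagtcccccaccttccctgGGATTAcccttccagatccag
These 5 genes were chosen for the match after values were seen. Sag encodes rod arrestin and had 4739 ± 499 CPM in retina and 394 ± 65.1 CPM in RPE (SD, n = 6 and 5). Gngt1, the rod transducin gamma subunit, had 1019 ± 91.5 CPM in retina and 82.2 ± 17.6 CPM in RPE, and Guca1a, a calcium sensor that activates guanylate cyclase, 293 ± 25.5 CPM in retina and 33.5 ± 5.93 CPM in RPE. Rbp3, the retinoid-binding protein between photoreceptors and RPE, had 4743 ± 369 CPM in retina and 382 ± 74.3 CPM in RPE. The motif was searched on both strands in the 250 bases upstream of the start. It was found for 8 of the 14 rod phototransduction genes with a promoter in the table. It was found for 2 of 13 outer segment, 2 of 9 cone, 2 of 9 RPE visual cycle and 2 of 8 surface epithelium genes. Among genes far higher in retina 7.51% of 1584 promoters held it, among genes far higher in RPE 5.97% of 1172, among all shared genes 5.35% of 10815, and among all promoters listed 6.38% of 27025. These shares are descriptions of letters, not of binding.

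None of the 15 genes with the largest fold towards retina stood on the rod or cone lists, and 6 of them encode subunits of ion channels or neurotransmitter receptors or a partner of such channels. Gria2, an AMPA-type glutamate receptor subunit, had 252, 279 and 368 CPM in retina and 6.31, 2.77, 2.51, 4.43 and 4.22 CPM in RPE (log2 6.22 ± 0.26). Scn1a and Scn3a, alpha subunits of voltage-gated sodium channels, had 104 and 39.2 CPM in retina, against 1.77 and 0.602 CPM in RPE. Glra3 and Gabrr3, subunits of glycine and GABA receptors, had 37.5 and 43.7 CPM in retina, against 0.626 and 0.697 CPM in RPE. Fgf14, an intracellular partner of sodium channels, had 20.3 CPM in retina and 0.352 CPM in RPE. Fam135b had the largest fold of all, at 86, 90.1 and 102 CPM in retina and 1.19, 0.874, 0.314, 1.16 and 0.767 CPM in RPE (log2 6.74 ± 0.35). The others were C230004F18Rik, Cdh8 (a cadherin), Gm19667, Galnt13 (a glycosyltransferase), BC046251, Slco5a1 (a transporter of the organic anion family), Nwd2 and St18 (a zinc finger factor), with log2 differences between 5.85 and 6.43. RPE means of all 15 genes were low, from 0.34 CPM for Cdh8 to 4.05 CPM for Gria2.

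Bipolar cell genes were far higher in retina in 14 of 17 cases, with a median log2 of 4.18. Grm6, the glutamate receptor of ON bipolar cells, had 219, 223 and 238 CPM in retina and 5.99, 3.93, 2.75, 4.35 and 4.91 CPM in RPE (log2 5.68 ± 0.19). Vsx1, Isl1 and Lhx4, homeodomain factors of bipolar cells, had log2 differences of 5.52, 5.41 and 5.27. Trpm1, the channel that Grm6 signalling closes in ON bipolar cells and that pigment cells also express, went the other way without being called, at 384, 408 and 453 CPM in retina and 644, 937, 922, 466 and 846 CPM in RPE (log2 -0.88 ± 0.20). Its libraries did not overlap between the tissues. Without RPE library A1, 16 of the 17 genes were called.

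Other inner retinal neurons were represented as well. Among 13 amacrine genes 8 were far higher in retina. Gad1, which makes GABA, had 289, 301 and 317 CPM in retina and 8.73, 7.21, 8.79, 7.38 and 8.21 CPM in RPE (log2 5.22 ± 0.06). Tfap2a was the amacrine marker nearest to equality, at 28.6 CPM in retina and 26.1 CPM in RPE. Among 5 horizontal cell genes Prox1, Calb1 and Onecut2 were far higher in retina, at 191, 82.8 and 10.2 CPM in retina against 6.09, 2.58 and 0.271 CPM in RPE. Of 13 ganglion cell genes 11 were far higher in retina. Nefl, the light neurofilament chain, had 391, 404 and 425 CPM in retina and 11.8, 13.7, 13.6, 11.2 and 15.3 CPM in RPE (log2 4.95 ± 0.08), and Slc17a6, the vesicular glutamate transporter of ganglion cells, had 73.2 CPM in retina and 1.67 CPM in RPE.

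Ribbon synapse genes were far higher in retina in 17 of 20 cases and in RPE in none. Cacna1f, the calcium channel subunit of photoreceptor terminals, had 589, 656 and 744 CPM in retina and 28.9, 24.3, 12.5, 24.5 and 20.8 CPM in RPE (log2 4.90 ± 0.22). Rims1, Pclo and Cacna2d4, an active zone scaffold, a second scaffold and a channel subunit, had log2 differences of 4.98, 4.77 and 4.82. The list summed to 11753 to 12391 CPM in retina and to 1602, 1291, 1116, 1145 and 1139 CPM in RPE, where A1 was highest.

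Müller glia, the radial glia of the retina, gave a split list. Of 18 markers 8 were far higher in retina, 5 far higher in RPE and 5 not called, and the median log2 of 0.34 was near that of all genes and became -0.03 with joint trimmed-mean scaling. Slc6a11, a GABA transporter, had 185, 193 and 198 CPM in retina and 6.56, 4.59, 5.41, 5.2 and 4.07 CPM in RPE (log2 5.22 ± 0.12). Kcnj10, the potassium channel of Müller endfeet, had 71.6 CPM in retina and 2.39 CPM in RPE (log2 4.91 ± 0.19). The members far higher in RPE were Id1, Hes1, Car14, Apoe and Sox9, which other cells express as well. Apoe, a lipid carrier, had 425, 533 and 584 CPM in retina and 3019, 3220.2, 3240.5, 2140.3 and 2794 CPM in RPE (log2 -2.46 ± 0.13), with no overlap. Id1, an inhibitor of basic helix-loop-helix factors and a BMP target, had 6.2 CPM in retina and 116 CPM in RPE. None of 4 astrocyte markers was called. Gfap, a filament of astrocytes and reactive glia, had 25.8, 29.4 and 33.1 CPM in retina and 7.46, 2.91, 5.8, 3.34 and 48.9 CPM in RPE (log2 1.12 ± 0.73). RPE library B4 alone overlapped the retina libraries, and without it the log2 was 2.61 and Gfap was called far higher in retina.

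**Figure D3:**
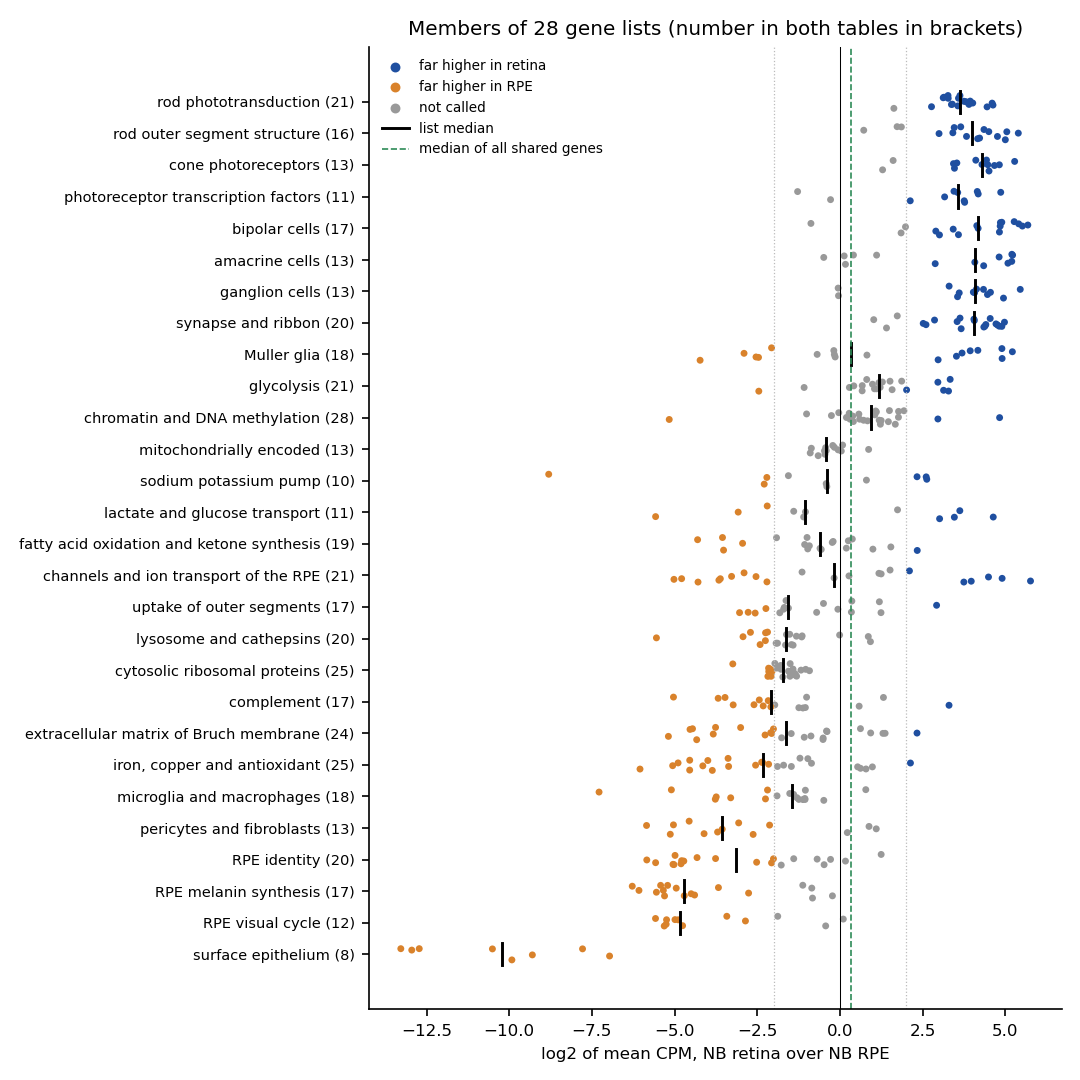
Log2 ratio of mean CPM, NB retina over NB RPE (x axis), for the members of 28 gene lists (rows), 1 point per gene, coloured by call. Black bars mark list medians and the green dashed line the median of all shared genes, 0.35. Photoreceptor and neuronal lists lie to the right, pigment and visual cycle lists to the left, and the 8 surface epithelium genes farthest left.

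In RPE the visual cycle genes stood out, with 9 of 12 far higher there and a median log2 of -4.82. Rpe65, the isomerase that makes 11-cis-retinol, had 56.1, 65.2 and 69.9 CPM in retina and 3763, 2431, 2486, 1879 and 1752 CPM in RPE. All RPE libraries lay above all retina libraries, at 38.1-fold (log2 -5.25 ± 0.20). Rgr, an opsin of RPE and Müller glia that binds all-trans-retinal, had 112, 149.8 and 185 CPM in retina and 8139.6, 5657, 5759.9, 4216 and 4498 CPM in RPE (log2 -5.24 ± 0.20). Rdh5, the dehydrogenase that finishes 11-cis-retinal, had 20.8, 30.7 and 36.9 CPM in retina and 1373, 1356, 1326, 866 and 993 CPM in RPE (log2 -5.31 ± 0.19). In each of these 3 genes A1 was the highest RPE library. Ttr, the carrier of retinol-binding protein, had 124, 156 and 197 CPM in retina and 9281, 8174, 7996, 6024 and 6588 CPM in RPE (log2 -5.58 ± 0.15). Stra6, the retinol uptake receptor, and Lrat, which esterifies retinol, had 23.4 and 22.2 CPM in retina. Their RPE means were 742 and 599 CPM, and the retina held 3.15% and 3.7% of that. Rlbp1, which carries 11-cis-retinoids in both RPE and Müller glia, was not called at 482 CPM in retina and 1775 CPM in RPE (log2 -1.88 ± 0.16). The member nearest to equality was Rdh11, a retinol dehydrogenase of many cells, at 62.7 CPM in retina and 58.4 CPM in RPE. On the photoreceptor side, Rdh12, the dehydrogenase of the inner segment, had 441, 466 and 487 CPM in retina and 29.7, 30.7, 21.7, 32 and 26.5 CPM in RPE (log2 4.04 ± 0.10). Of 13 further retinoid enzymes and binding proteins 3 were far higher in retina, namely Rbp3, Rdh8 and Rdh12, and 3 far higher in RPE, namely Aldh1a3 (0.884 CPM in retina, 110.0 CPM in RPE), Retsat and Bco2.

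Among 20 RPE identity genes listed for both tissues, 13 were far higher in RPE and none in retina. Slc16a8, the lactate carrier of the outer RPE membrane, had 8.9, 11.6 and 16.9 CPM in retina and 616, 662, 657, 435 and 504 CPM in RPE (log2 -5.57 ± 0.18). Slc6a20a, an amino acid transporter, had 7.65 CPM in retina and 253 CPM in RPE, and Car12, a membrane carbonic anhydrase, 13.4 and 434 CPM in retina and RPE. Cdh1, the epithelial cadherin, had 0.996, 5.18 and 6.98 CPM in retina and 197, 246, 259, 414 and 313 CPM in RPE (log2 -5.84 ± 0.47), with A1 lowest and B3 highest of the RPE libraries. That is the order of the surface epithelium sum, which also uses this cadherin, and the part of surface epithelium in the Cdh1 level was not tested. Best1, the chloride channel often used to define RPE, went against the label, at only 0.984, 1.6, 1.49, 2.33 and 1.84 CPM in RPE, and the retina table does not list it. Pax6, a factor of eye development, was the identity member nearest to equality, at 342, 362 and 378 CPM in retina and 333, 291, 289, 346 and 346 CPM in RPE (log2 0.17 ± 0.06).

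Pigment genes were far higher in RPE in 13 of 17 cases, with a median log2 of -4.71. Dct, the dopachrome tautomerase of melanin synthesis, had 36, 40.3 and 91.7 CPM in retina and 2378, 2742, 2821, 1718 and 2516 CPM in RPE (log2 -5.55 ± 0.26). Pmel, which forms the melanosome fibrils, had 13.4, 20.6 and 40.7 CPM in retina and 626, 1113, 1225, 618 and 1205 CPM in RPE (log2 -5.42 ± 0.32). RPE library B3 was lowest of the 5 for both. Mlana and Mlph, a melanosome membrane protein and a linker of melanosomes to myosin, had 2.51 and 1.28 CPM in retina, against 195 and 86.5 CPM in RPE. Hps4, a subunit of a trafficking complex found in most cells, was nearest to equality at 41.3 CPM in retina and 48.2 CPM in RPE. Neural crest melanocytes are the other pigment cells of the eye, in choroid and iris. Sox10, which RPE cells lack, had 1.13, 1.88 and 2.39 CPM in retina and 81.7, 69.2, 79, 48.9 and 72 CPM in RPE (log2 -5.30 ± 0.23), and Kit and Edn3 had 10.4 and 1.36 CPM in retina against 112 and 38.2 CPM in RPE. The summed level of the 7 melanocyte markers was 40.1 to 47.9 CPM in retina, against 419.7, 473, 462, 331 and 703 CPM in RPE. Of the 7, 4 were far higher in RPE, 1 far higher in retina and 2 not called. Mlana, with 195 CPM in RPE, is on both the melanocyte and the pigment list, so the 2 lists are not separate. The part of melanocytes in the pigment genes was not tested.

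MITF, the master factor of pigment cells, binds the M-box, whose core is CATGTG. The promoters of 4 pigment genes are shown because they hold that core, with the same source, extent and direction as above and with the core in capitals, on the other strand (CACATG) in Slc24a5.
Tyr, chr7:87493513-87493662, minus strand: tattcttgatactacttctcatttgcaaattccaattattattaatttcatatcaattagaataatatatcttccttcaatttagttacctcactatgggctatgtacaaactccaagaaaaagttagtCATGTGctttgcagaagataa
Tyrp1, chr4:80834063-80834212, plus strand: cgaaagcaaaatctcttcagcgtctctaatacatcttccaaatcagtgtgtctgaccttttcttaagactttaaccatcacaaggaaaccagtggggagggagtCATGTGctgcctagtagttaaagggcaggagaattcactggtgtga
Dct, chr14:118052247-118052396, minus strand: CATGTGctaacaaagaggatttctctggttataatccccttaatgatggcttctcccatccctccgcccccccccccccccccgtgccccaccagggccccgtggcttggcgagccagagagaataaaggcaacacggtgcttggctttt
Slc24a5, chr2:125067977-125068126, plus strand: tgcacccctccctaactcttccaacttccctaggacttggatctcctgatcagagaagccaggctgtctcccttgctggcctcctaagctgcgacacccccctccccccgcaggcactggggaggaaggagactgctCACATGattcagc
Tyr, Tyrp1 and Slc24a5 were chosen for the match after values were seen. Tyr, the tyrosinase, had 8.06 ± 1.26 CPM in retina and 249 ± 61.8 CPM in RPE, Tyrp1, its relative, 20.8 ± 7.23 and 843 ± 173 CPM in retina and RPE, and Slc24a5, the melanosome exchanger, 4.47 ± 1.22 and 165 ± 31.7 CPM in retina and RPE. CATGTG was found in 6 of 12 pigment gene promoters, in 7.13% of those of genes far higher in retina, in 7.94% of those of genes far higher in RPE, in 7.07% of those of all shared genes and in 12.2% of all promoters of the table, searched on both strands in 250 bases. The share among genes far higher in RPE was thus near that among shared genes.

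Transport genes showed members of one family on opposite sides. In the sodium potassium pump, which keeps the ion gradients of both tissues, the beta subunit Atp1b2 had 1209, 1321 and 1478 CPM in retina and 287, 282, 258, 232 and 261 CPM in RPE (log2 2.33 ± 0.07). Atp1b3 went the other way, at 67.5, 108 and 127 CPM in retina and 413, 473, 523, 579 and 562 CPM in RPE (log2 -2.29 ± 0.16), with A1 lowest and B3 highest of the RPE libraries. Fxyd3, a pump regulator of epithelia, had the largest difference of the list (log2 -8.80 ± 0.41). In all, 3 of 10 pump genes were far higher in retina and 3 far higher in RPE, against 15% and 11.1% of all shared genes. With joint trimmed-mean scaling 2 were far higher in retina, and Atp1b2, at a log2 of 1.96, fell short of 4-fold.

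Lactate and glucose carriers divided likewise, 4 of 11 far higher in retina and 3 far higher in RPE. Slc16a3, a lactate exporter of glycolytic cells, had 47.4, 55.1 and 70.7 CPM in retina and 5.21, 6.34, 2.59, 4.66 and 4.22 CPM in RPE (log2 3.63 ± 0.23), and Slc16a7, a neuronal carrier, 21.8 and 2.69 CPM in retina and RPE. Slc2a3, the neuronal glucose carrier, had 93.8, 96.5 and 103 CPM in retina and 5.25, 3.42, 3.84, 3.65 and 3.45 CPM in RPE (log2 4.64 ± 0.12). Slc2a1, the glucose carrier of the RPE and of photoreceptors, had 208, 238 and 242 CPM in retina and 1077, 1190.1, 1147, 826 and 1049.8 CPM in RPE (log2 -2.20 ± 0.10). All 4 carriers, and Slc16a8 above, had no overlap between the tissues. Nxnl1, the rod-derived cone viability factor, had 388 CPM in retina and 35.3 CPM in RPE.

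Among 21 channel and acid-base genes known from RPE work, 6 were far higher in retina and 9 far higher in RPE. Kcnj13, the potassium channel of the apical RPE membrane, had 3.85, 8.28 and 10.8 CPM in retina and 291, 225, 222, 164 and 176 CPM in RPE (log2 -4.79 ± 0.26). Slc4a5, a bicarbonate cotransporter, had 55.2, 72 and 73 CPM in retina and 1069, 897, 923, 641 and 833 CPM in RPE (log2 -3.66 ± 0.14), and Slc26a7, an anion exchanger, 8.63 and 169 CPM in retina and RPE. On the retinal side stood Kcnma1, a calcium-gated potassium channel, with a log2 of 5.76 ± 0.20, Slc4a7, another bicarbonate cotransporter, with 4.49 ± 0.13, and Car2, the cytosolic carbonic anhydrase, with 3.97 ± 0.07. Without RPE library B3, 5 were called far higher in retina.

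**Figure D4:**
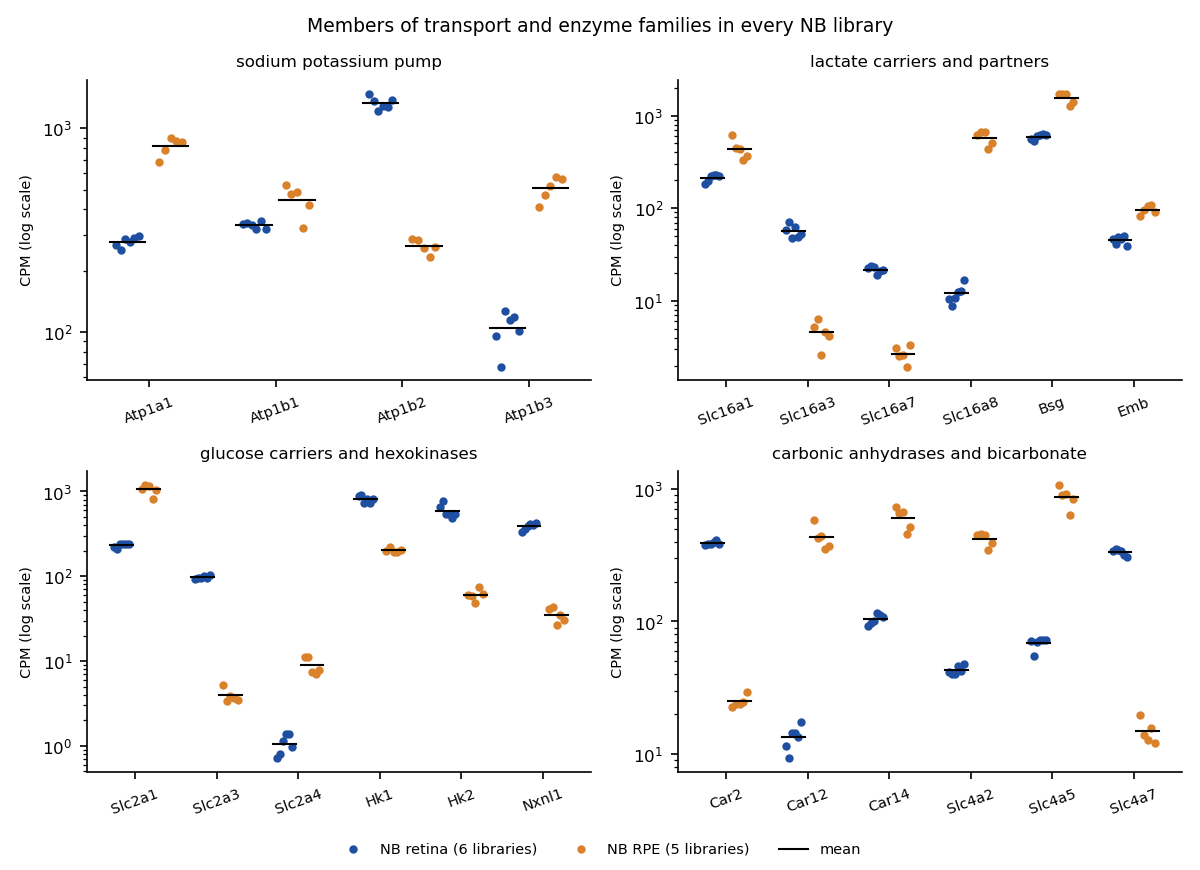
CPM (log scale) of 22 transport and enzyme genes in each NB retina library (blue, left of each pair) and NB RPE library (orange, right), with the group mean as a black bar. Atp1b2, Slc16a3, Slc2a3 and Car2 are higher in every retina library, and Atp1b3, Slc16a8, Slc2a1 and Car12 in every RPE library.

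Glycolytic enzymes leaned to retina. Of 21 genes 19 had a higher mean there (18 with joint trimmed-mean scaling), but with the 4-fold minimum 5 were called far higher in retina and Pgam2, the muscle phosphoglycerate mutase, was far higher in RPE, where skeletal muscle markers were also higher. The median log2 was 1.18, against 0.35 for all genes. Hk2, a hexokinase of photoreceptors, had 489, 545 and 783 CPM in retina and 60.8, 59, 47.9, 73.8 and 62.3 CPM in RPE (log2 3.28 ± 0.14). Pfkfb2, which makes the activator of phosphofructokinase, had 405 CPM in retina and 40.1 CPM in RPE (log2 3.33 ± 0.11). Eno2 and Pfkp, the neuronal enolase and the platelet-type phosphofructokinase, had log2 differences of 3.14 ± 0.11 and 2.96 ± 0.12. Eno3, the muscle enolase, lay nearest to equality at 39.3 CPM in retina and 32.2 CPM in RPE.

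Fat and ketone genes showed 1 of 19 far higher in retina (0 with joint trimmed-mean scaling) and 4 far higher in RPE. The shares over all shared genes were 15% and 11.1%. Acadl and Acads, acyl-CoA dehydrogenases for long and short chains, and Acaa2, the mitochondrial thiolase, had 15.8, 4.52 and 15.4 CPM in retina and 181, 34.7 and 180.4 CPM in RPE. Acadvl, for very long chains, was nearest to equality (log2 0.20 ± 0.05). None of the 13 mitochondrially encoded genes was called, and their log2 differences ran from -0.90 to 0.87.

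Serine and glutamate genes were far higher in retina in 6 of 18 cases, all of them glutamate carriers, and in RPE in 3. Slc1a1, 1 of the 3 far higher in RPE, is a glutamate carrier too, so these carriers stood on both sides. Slc17a6, Slc1a7, Slc1a2 and Slc17a8 had log2 differences from 3.97 to 5.45. Phgdh, the first enzyme of serine synthesis, had 13.7, 29.2 and 30.8 CPM in retina and 249, 261, 254, 179.8 and 193 CPM in RPE (log2 -3.17 ± 0.23), and Shmt1, which moves carbon from serine to folate, 1.34 and 16.1 CPM in retina and RPE. Glud1, glutamate dehydrogenase, was nearest to equality at 84.7 CPM in retina and 84.6 CPM in RPE.

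Genes for the uptake of outer segments were mostly not called. Of 17 genes 4 were far higher in RPE and 1 in retina, against 11.1% and 15% of all shared genes. Mertk, the receptor that drives engulfment, had 11, 11.5 and 15.1 CPM in retina and 115, 63.6, 70.6, 48.8 and 56.3 CPM in RPE (log2 -2.56 ± 0.22). Tyro3, its relative, had 15.4 CPM in retina and 126 CPM in RPE (log2 -3.03 ± 0.12), and Itgav, an integrin subunit of the binding step, 58.2 and 274 CPM in retina and RPE. Elmo1, an activator of the Rac switch with Dock1, was far higher in retina (log2 2.92 ± 0.14), while Dock1 was far higher in RPE (log2 -2.77 ± 0.06). Mfge8, the bridge between integrin and outer segment, was not called at 282 CPM in retina and 221 CPM in RPE. With joint trimmed-mean scaling 7 of the 17 were called far higher in RPE.

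Lysosome genes were far higher in RPE in 7 of 20 cases (10 with joint trimmed-mean scaling) and in retina in none, with a median log2 of -1.63. Gpnmb, a melanosome and lysosome glycoprotein, had 11.8, 16.5 and 39.3 CPM in retina and 841, 1162, 1189, 624 and 1117 CPM in RPE (log2 -5.55 ± 0.32). Ctsd, the protease that digests opsin in RPE, had 127, 162 and 179 CPM in retina and 1082, 1357, 1326, 1037 and 1098 CPM in RPE (log2 -2.93 ± 0.12). Npc2, a cholesterol carrier of the lysosome, and Grn, the progranulin precursor, had log2 differences of -2.70 and -2.41, and Tpp1, a lysosomal peptidase, was nearest to equality (209 CPM in retina, 210.4 CPM in RPE).

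Of 17 lipid carriers and transporters 2 were far higher in retina and 6 in RPE (8 with joint trimmed-mean scaling). Of all shared genes, 15% were far higher in retina and 11.1% in RPE, so the retina count was near that share. Elovl4, which makes the very long fatty acids of outer segments, had 433, 457 and 496 CPM in retina and 68.8, 53, 44.6, 42.5 and 42.5 CPM in RPE (9.22-fold higher in retina), and Fabp12, a fatty acid carrier, 131 and 8.9 CPM in retina and RPE. Plin2, a coat of lipid droplets, had 7.04 CPM in retina, against 60.3 CPM in RPE. Mfsd2a, the carrier of docosahexaenoic acid in lysolipid form, had 5.29 CPM in retina and 32.2 CPM in RPE.

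Iron and antioxidant genes were far higher in RPE in 14 of 25 cases (16 with joint trimmed-mean scaling), with a median log2 of -2.34. Tfrc, the transferrin receptor, was the 1 far higher in retina (log2 2.13 ± 0.12), a call that joint trimmed-mean scaling ended (log2 1.76). Trf, transferrin, had 3.82, 7.19 and 8.45 CPM in retina and 193, 261, 259, 190.2 and 202 CPM in RPE (log2 -5.06 ± 0.21). Txnip, an inhibitor of thioredoxin, and Mt2, a metallothionein, had 11.6 and 11 CPM in retina, against 345 and 256 CPM in RPE. Gsta3, a glutathione transferase, had the largest difference (log2 -6.04 ± 0.20).

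Complement and its regulators were far higher in RPE in 9 of 17 cases. Cd55, an inhibitor on the cell surface, C2 and C1ra, early proteases of the cascade, had 0.764, 1.2 and 0.814 CPM in retina, against 25, 13.4 and 7.62 CPM in RPE. Vtn, which blocks the terminal complex and which photoreceptors express in mouse, was far higher in retina at 671, 750.4 and 835 CPM, against 85, 95.7, 60.8, 80.6 and 61 CPM in RPE (9.85-fold higher in retina). Of 16 mouse counterparts of genes at human loci for age-related macular degeneration, 2 were far higher in retina (Vtn and Mmp9) and 8 in RPE. Slc16a8, Col8a1 and Timp3 were among these 8. The shares over all shared genes were 15% towards retina and 11.1% towards RPE. Tgfbr1, a receptor of TGF-beta, was nearest to equality (log2 0.15 ± 0.07).

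The matrix under the RPE, Bruch membrane, is built from both sides. Of 24 matrix genes 11 were far higher in RPE and 1, Lama1, in retina, where joint trimmed-mean scaling left 0. Timp3, which restrains metalloproteinases there, had 119, 144 and 152 CPM in retina and 2869.7, 1942, 1817, 1301 and 1616 CPM in RPE (log2 -3.76 ± 0.19). Col8a2 and Col8a1, chains of a short collagen, had 20.4 and 26.2 CPM in retina, against 743 and 606 CPM in RPE. Fbln5 and Nid2, an elastic fibre protein and a basement membrane linker, had log2 differences of -4.46 and -4.33. Without retina library A2, or without RPE library A1, 9 of the 24 were called far higher in RPE. Retina library A2 was also the lowest in the sum of the whole list, at 706 CPM, against 1297 CPM in the next lowest.

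Secreted growth factors were far higher in RPE in 8 of 20 cases and in retina in 1. Bmp4, a morphogen of the dorsal eye, had 2.32, 4.35 and 5.51 CPM in retina and 189, 162, 167, 138 and 168 CPM in RPE (log2 -5.26 ± 0.20), and Bmp2 had 2.77 CPM in retina and 44.3 CPM in RPE. Fgf9 had 26.3, 29.8 and 32.2 CPM in retina and 1.8, 1.75, 1.02, 1.48 and 0.998 CPM in RPE (log2 4.41 ± 0.19). Tgfb2 lay nearest to equality, and Vegfa, which keeps the choroidal capillaries, was not called at 177 CPM in retina and 287 CPM in RPE (log2 -0.70 ± 0.20).

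Of 22 eye field and neural factors 3 were far higher in retina, 9 in RPE and 10 not called. Of all shared genes, 15% were far higher in retina and 11.1% in RPE, so the retina count was near that share. Otx1 had 0.863, 1.46 and 1.84 CPM in retina and 56.6, 89.3, 96.7, 105 and 92.2 CPM in RPE (log2 -5.95 ± 0.23), with A1 lowest and B3 highest of the RPE libraries. Id1, Hes1 and Id3 were far higher in RPE too. Sox2, a factor of neural retina, had 20.8 CPM in retina, against 1.53 CPM in RPE. Mitf, a factor of early RPE, had 8.85, 9.57 and 9.88 CPM in retina and 80.1, 50.8, 54.6, 35.6 and 48.1 CPM in RPE (log2 -2.52 ± 0.19). Of 23 guidance and adhesion genes 11 were far higher in retina, 1, Sema3c, far higher in RPE (2 with joint trimmed-mean scaling) and 11 not called. Nrxn3, a presynaptic adhesion protein, had 219, 232 and 269.8 CPM in retina and 5.82, 3.42, 5.1, 3.49 and 3.22 CPM in RPE (log2 5.82 ± 0.18).

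Few chromatin genes were called, though most had a higher mean in retina. Of 28 genes for DNA methylation, histone acetylation and Polycomb, 2 were far higher in retina and 1 in RPE, against 15% and 11.1% of all shared genes. A higher mean in retina was found for 24 of the 28 (20 with joint trimmed-mean scaling). The median log2 was 0.95, against 0.35 for all genes. Hdac9 had 95.3, 99.5 and 105 CPM in retina and 4.18, 3.64, 3.06, 3.57 and 3.15 CPM in RPE (log2 4.83 ± 0.08), and Tet1, which oxidises methylcytosine, 50.9 and 6.53 CPM in retina and RPE. Uhrf1, which copies methylation at replication, had 0.391 CPM in retina and 14 CPM in RPE (log2 -5.16 ± 0.35). Smarca4, the ATPase of a remodelling complex, was nearest to equality (log2 -0.03 ± 0.06).

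All 25 cytosolic ribosomal protein genes had a lower mean in retina, with a median log2 of -1.73, and 7 were far higher in RPE. Rplp0 had 136, 161 and 174 CPM in retina and 898, 1548, 1539, 1946 and 1479 CPM in RPE (log2 -3.24 ± 0.19). The sum of the list was 4093 to 4611 CPM in retina and 9834, 14661, 14784, 17467 and 14165 CPM in RPE, with A1 lowest and B3 highest. Surface epithelium markers had the same lowest and highest library, and their part in this difference was not tested. The number of ribosomal genes called was 4 without RPE library B3, 9 without A1 and 13 with joint trimmed-mean scaling.

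The largest differences of the whole comparison were in surface epithelium genes. All 8 markers of it in both tables were far higher in RPE, with a median log2 of -10.21. Krt5, a keratin of basal epithelial cells, had 0.535, 1.25 and 2.38 CPM in retina and 6131, 9583, 9991, 15006 and 10541 CPM in RPE (log2 -12.95 ± 0.41). Krt15, its basal partner, had 0.535, 0.943 and 1.5 CPM in retina and 5891, 8387, 9662, 13674 and 10103 CPM in RPE (log2 -13.28 ± 0.32). Krt12, the keratin of corneal epithelium, had 0.535, 1.36 and 2.65 CPM in retina and 513, 3482, 1468, 4034 and 1279 CPM in RPE (log2 -10.51 ± 0.64). In all 3 the RPE library A1 was lowest and B3 highest, and no retina library passed 3 CPM. The RPE table alone lists 8 further markers, among them Krt4, Krt6a and Krt14. Gsto1, a glutathione transferase, took the most reads of any gene in RPE, at 14.1, 17.4 and 20.0 CPM in retina and 12713, 21258, 21321, 31611 and 21439.6 CPM in RPE (log2 -10.27 ± 0.22), again with A1 lowest and B3 highest. The 15 genes with the largest fold towards RPE were Krt15, Krt5, Krt13, Krt6b, Muc4, Calml3, Emp1, Il1rn, Ifit1bl1, Ifi204, Asprv1, Krt12, Ifitm1, Upp1 and Gsto1, with log2 differences from -10.27 to -13.28. They include 5 keratins, the mucin Muc4, the epithelial protease Asprv1 and the interferon-induced genes Ifit1bl1, Ifi204 and Ifitm1, and no visual cycle or pigment gene. Il1rn, the antagonist of the interleukin 1 receptor, had 1 read over all retina libraries and 4199 reads over the RPE libraries, a ratio at equal depth of 5698 with a 95% counting interval from 1022 to 225101. That interval covers counting error only.

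**Figure D5:**
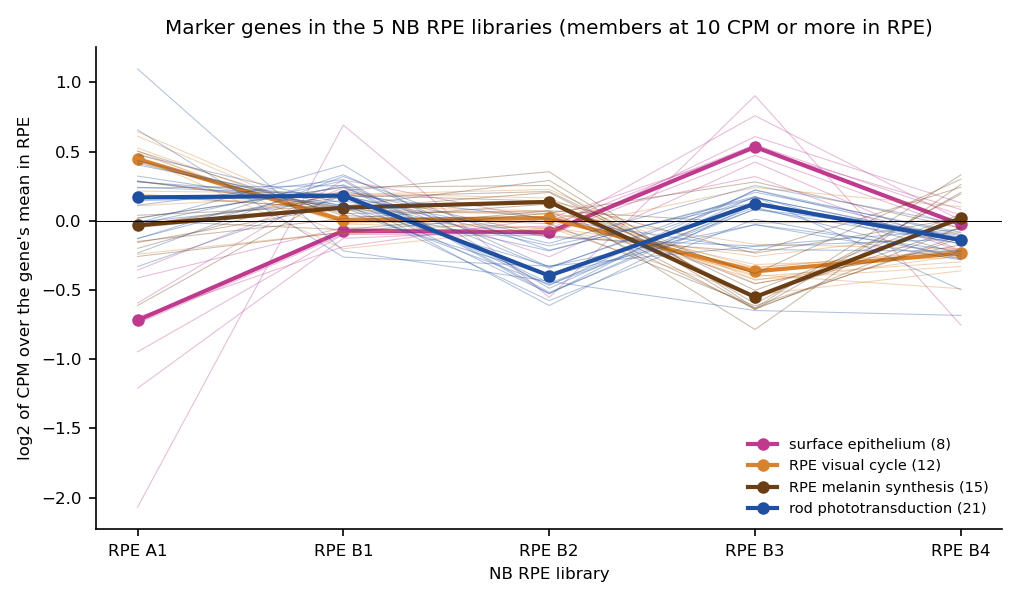
Log2 of CPM over the gene's own mean in RPE (y axis) in the 5 NB RPE libraries (x axis), thin lines for genes and thick lines for list medians. Surface epithelium genes are lowest in A1 and highest in B3, visual cycle genes highest in A1 and lowest in B3, and pigment genes lowest in B3.

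Over all 1683 genes far higher in RPE, 929 had their highest RPE value in B3 and 918 their lowest in A1. 755 genes combined both, the order of the surface epithelium sum, and 244 had the reverse, the order of the visual cycle sum. Among all shared genes 27.9% were highest in B3, against 55.2% of the genes far higher in RPE, and 30.5% were lowest in A1, against 54.5%. For the reverse, 35% of all shared genes were highest in A1, against 18.3%, and 32.6% lowest in B3, against 27.7%. A1 and B3 were thus often the extreme libraries in any case. How many of all shared genes combine both was not counted. The part of surface epithelium RNA in these calls was not tested beyond the order of libraries.

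Epithelial junction genes fell among these, with 13 of 20 far higher in RPE and 2, Crb1 and Cdh2, in retina. With joint trimmed-mean scaling Cdh2 fell short of 4-fold, at a log2 of 1.97. Krt19, a keratin of simple and surface epithelia, and Krt8, a keratin of simple epithelia that RPE holds, had 1.43 and 3.61 CPM in retina, against 1424 and 307 CPM in RPE. Crb1, a polarity protein of the photoreceptor and Müller junction, had 549, 565 and 589 CPM in retina and 44.5, 47.6, 35.6, 31.1 and 35.8 CPM in RPE (log2 3.86 ± 0.11). Tjp1, a scaffold of tight junctions, was nearest to equality (log2 -0.15 ± 0.10).

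Markers of stroma and blood were also higher in RPE. Of 13 pericyte and fibroblast markers 10 were far higher in RPE, with Dcn and Col3a1, stromal matrix genes, at 1.94 and 2.11 CPM in retina and 112 and 73.8 CPM in RPE. Of 18 microglia and macrophage markers 7 were far higher in RPE and 11 not called, with a median log2 of -1.46. Itgam, an integrin of myeloid cells, had the largest difference, at 0.321, 0.461 and 0.918 CPM in retina and 43.8, 74.9, 70.8, 142 and 85 CPM in RPE (log2 -7.28 ± 0.37). Its RPE values were lowest in A1 and highest in B3, as in the surface epithelium sum, and a link was not tested. Cx3cr1, a microglial receptor, was not called at 4.52 CPM in retina and 2.63 CPM in RPE. Of 15 endothelial markers 11 were not called. Kdr (log2 4.28 ± 0.22) and Esam were far higher in retina, and Slco1a4 (log2 -2.50 ± 0.18) and Ramp2 far higher in RPE. These counts were near the shares of all shared genes, 15% towards retina and 11.1% towards RPE. The 4 globin genes were far higher in RPE, and summed to 7.99 to 15.5 CPM in retina, against 42.3 to 76.2 CPM in RPE. Among 8 ciliary body and iris genes 4 were far higher in RPE and none in retina. Of 17 stress genes 5 were far higher in RPE (8 with joint trimmed-mean scaling), led by Hspb1 and Zfp36 (log2 -5.75 ± 0.23 and -5.20 ± 0.39), and Nr4a1 was far higher in retina (log2 3.74 ± 0.53).

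Lens genes varied as much among libraries of a tissue as between tissues. Of 18 none was far higher in retina and 4 gamma crystallins were far higher in RPE, led by Cryge at 3.07, 4.57 and 11.5 CPM in retina and 17.1, 33, 114, 30.0 and 65.9 CPM in RPE. Cryaa, alpha crystallin, overlapped. Without retina library A2, the library low in lens genes, 2 lens genes were called far higher in retina and 3 in RPE.

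Genes of 1 table alone extended both patterns. The retina table alone listed 1822 genes, of which 56 reached 10 CPM in NB retina and 0 reached 100 CPM. Its highest were Gm16262 at 28.2 ± 3.59 CPM, Cntnap5a, a neuronal adhesion gene, at 25.6 ± 2.6 CPM, Kcnh5, a potassium channel, Gm38020 and Zfp804b. The RPE table alone listed 1606 genes, of which 328 reached 10 CPM and 95 reached 100 CPM in NB RPE. Its highest were Krt4 at 2222, 3454, 3887, 5643 and 4009 CPM, Krt6a, Cbr2, a carbonyl reductase, Krt14 and Aqp3, a glycerol channel of surface epithelia at 709.6, 938, 1063, 1439 and 1040.0 CPM. The filter that left genes out of a table is not given in the sources used here.

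Most NB calls recurred in the libraries of the other times, which the NB calls did not use, while the medians of several lists lay nearer to 0 there. The same rule applied to the 6 h libraries (n = 3 and 3) called 1815 genes far higher in retina and 1300 in RPE. Of the NB calls, 76.1% of the retina genes and 72% of the RPE genes were called again, and they made up 95.2% and 93.2% of the 6 h calls. At 1 d (n = 4 and 4) 83.7% and 69.7% of the NB calls recurred, and at 3 d (n = 4 and 4) 81.3% and 69.5%. The median log2 of the rod phototransduction genes was 3.63 at NB, 2.21 at 6 h, 2.28 at 1 d and 2.64 at 3 d. In the same order, cone genes had 4.30, 2.77, 2.55 and 3.24, RPE visual cycle genes -4.82, -3.29, -3.32 and -4.59 and surface epithelium genes -10.21, -10.19, -10.70 and -11.32. Complement genes had -2.09, -1.06, -0.36 and -0.61, and 9, 3, 3 and 4 of them were far higher in RPE. These differences between times were not tested. The median of all shared genes at the later times is not given here. The 6 h columns have the form of name of A1 and A2, while most NB columns have the other form. The background at those times was 12%, 14.5% and 12.7% of shared genes towards retina and 8.6%, 8.63% and 8.01% towards RPE. In 4 cases, over 3 genes, the direction turned round, from far higher in RPE at NB to far higher in retina at a later time, and in 0 cases the other way. Lif, a cytokine that Müller glia release, had 0.718 CPM in retina and 3.02 CPM in RPE at NB, 48 and 4.49 CPM in retina and RPE at 6 h, and 14.1 and 3.13 CPM in retina and RPE at 1 d. Steap4, a metal reductase, turned round at 3 d, with 13.3 CPM in retina and 2.76 CPM in RPE, and 9330175E14Rik at 1 d. These were named after their values were seen.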

How the data were processed

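RNA of NB retina (n = 6) and NB RPE (n = 5) from abca4-/- rdh8-/- mice was compared. The libraries were stranded mRNA libraries, per the labels' protocols. The submitters' processing notes name Trimmomatic, STAR, edgeR and the build GRCm38, and the read counter and its strand setting are not given in the sources used here. The deposited signal values are CPM over an effective library size, as the authors' numbers themselves show, with each tissue in a table of its own. All NB values were whole multiples of 1 read within 0.01 read (100% of values), so reads were recovered from that step. The 6 h, 1 d and 3 d libraries were read as deposited CPM only, and the ATAC-seq libraries of the series were not analysed here.

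Genes were joined by Ensembl identifier and named from a symbol table, which left 6 retina and 7 RPE identifiers unmatched. Because the tables were normalized apart, no test decided a call. A call needed means at least 4-fold apart, a mean of at least 1 CPM in the higher tissue and no overlap of libraries. A group with under 3 reads in all was set to 3 reads. SDs are over libraries, and the SE of a log2 difference comes from the variances of log2 values in both groups. Each library holds both eyes of a mouse, per the labels' protocols, but no column could be tied to 1 mouse. edgeR 4.0.16, limma 3.58.1 and DESeq2 1.42.0 in R 4.3.3 ran on recovered reads or log2(CPM + 0.5) as alternatives, tested on simulated data first. Figures and tables were made with Python 3.11.15, numpy 2.4.6, pandas 2.3.3, scipy 1.17.1 and matplotlib 3.10.9.

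Members and lists were chosen with earlier results of these data known. Genes were named by rule: the 15 called genes with the largest fold in each direction at 20 CPM or more, up to 4 called members of each list in each direction and its member nearest to equality at 20 CPM or more, the 10 genes with most reads in each tissue, the 5 highest genes of 1 table alone, Abca4 and Rdh8. Gngt1, Guca1a, Tyr, Tyrp1, Slc24a5, Gfap, Stra6, Lrat, Rlbp1, Best1, Vegfa, Mitf and Cx3cr1 were named after their values were seen. Some genes that the rule names are not reported here. Promoter sequences are RefSeq's, from 250 bases before to 50 after a gene's start. In the column sets with a dot before the number, RPE has 1 library.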

Additional observations from a re-analysis of the deposited data

Results flagged for a closer look

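In 32 of 451 groups of 5 or 6 libraries (7.1%), over the genes named above and the summed lists, the highest or lowest library stood far from the nearest other one relative to that group's whole range. Chance flags about 1 in 20 such groups if they are independent, which groups from the same libraries are not.

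RPE library A1 accounted for 10. It was highest for Arr3 (28.7 CPM, next library 14.9), Cdhr1 (1559, next 950), Gabrr3 (1.35, next 0.621), Isl1 (3.198, next 2.35), Pfkfb2 (52.1, next 38.7) and Rdh11 (80.7, next 56.5). It was also highest for Slc2a3 (5.25, next 3.84) and Tfrc (56.6, next 42.4), and lowest for Acads (28.9, next 35.9) and Grn (135, next 215). RPE library B3 accounted for 5. It was lowest for Nid2 (71.2, next 116), Tyrp1 (541, next 867), the summed Muller glia markers (4904, next 6509) and the summed eye field factors (1529, next 1654), and highest for Tjp1 (253, next 197). RPE library B4 was highest for Gfap (48.9, next 7.46) and Cx3cr1 (4.91, next 2.33), and RPE library B1 for Rdh8 (4.01, next 2.795).

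Retina library A2 accounted for 8. It was lowest for Cdh1 (0.996 CPM, next 4.92), Slc4a5 (55.2, next 70.1), Timp3 (119, next 141) and the summed pericyte (148, next 200.2), RPE identity (1948, next 2122) and Bruch's membrane genes (706, next 1297), and highest for Opn1mw (164, next 118) and Pde6a (3516, next 3244). Retina library B1 was highest for Pmel (40.7, next 22.5) and Mlana (4.06, next 2.56), retina library B4 for Mertk (15.1, next 11.8) and the summed skeletal muscle markers (16.4, next 14.2), and retina library B2 was lowest for Prox1 (181, next 191) and Shmt1 (0.826, next 1.33).

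For 4 genes all libraries of the higher tissue lay on the other side at a later time, a difference between times that was not tested. Lif had a log2 of retina over RPE of -2.07 at NB, 3.42 at 6 h and 2.16 at 1 d. Steap4 had -3.54 at NB, 1.04 at 6 h and 2.27 at 3 d. 9330175E14Rik had 3.09 at 1 d, against -4.14 at NB, and Acadvl had -0.48 at 3 d, against 0.20 at NB. Acadvl was not called at NB. Its NB value lies within the shift of the median gene under joint scaling, so its direction at NB is not fixed.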

How the results depend on the processing

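The counts of 2270 genes far higher in retina and 1683 far higher in RPE stayed within 1.5 times under 3 joint scalings, group medians, other minimum levels, added constants of 0.5 and 2 CPM and the 2 sets of column names, from 1758 to 2419 for retina and from 1250 to 2169 for RPE. Leaving out 1 library gave 2223 to 2439 for retina and 1652 to 1735 for RPE. The fold sets the counts: a 2-fold minimum gave 4828 and 3090, an 8-fold one 1241 and 888, and a 16-fold one 642 and 507. Tests of any difference at an adjusted p of 0.05 gave 6328 and 6505 (edgeR on recovered reads), 6374 and 6504 (DESeq2) and 7936 and 5038 (limma on deposited CPM), and edgeR against a 4-fold minimum gave 1498 for retina and 1750 for RPE, so that RPE had the more calls there, as under joint trimmed means (1833 and 2169). All 2270 and 1683 calls were among those of edgeR, DESeq2 and limma. These tests called 84.9%, 85.2% and 85.9% of the 15108 genes, and the rule already asks for 4-fold and no overlap in the same libraries. That result was therefore built in and is no support for the calls. The edgeR test against a 4-fold minimum also called 1498 of the 2270 and 1638 of the 1683. With the column numbers as a replicate block over 10 libraries, edgeR gave 6247 and 6345, against 6228 and 6411 for those libraries without it. The numbers do not pair the tissues by label: same-numbered libraries correlated at 0.073 to 0.396 over 11114 genes and best with their own number in 3 of 5, a hint from the data only. Median log2 values moved by more than their spread in 28 of 45 lists under joint trimmed means, and 102 of 274 named genes did. None changed sign among called values, which the 4-fold minimum built in. By the same measure 16 of 45 lists and 107 of 274 named genes moved in the columns with a dot before the number. There RPE has 1 library. The cause was not tested. Depth limits the low side of a fold, since 3 reads over a whole group come to 0.0288 CPM in retina and 0.0391 CPM in RPE.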
